A study of Rattus norvegicus with 9 samples.

Results

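Skeletal muscle RNA was followed through 9 RNA-seq libraries of rat knee tissue with 10 genes: the adult fast myosin heavy chains Myh4, Myh1 and Myh2, the slow chain Myh7, the embryonic and perinatal chains Myh3 and Myh8, the muscle actin Acta1, the muscle creatine kinase Ckm, and the transcription factors Pax7 and Myog. All 10 were found by their symbols among the 17602 genes of the deposited table. They were chosen by name and by their levels in these same libraries, whose sum was already known not to follow the groups, so their levels, shares, ratios and fitted fold changes are given as a description, and nothing is drawn from a test of them.

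The rats were wild-type male Lewis rats of 10 to 12 weeks of age. The intact group was synovium, the joint lining, taken around the medial meniscus of knees without surgery. For the sham group, synovium at that site was collected 1 week after the joint capsule had been opened and closed again. The pMx group was regenerative tissue 1 week after partial medial meniscectomy (pMx), in which the front part of the medial meniscus was removed, and the surrounding synovium was trimmed from this tissue. Each group had 3 libraries, labeled as biological replicates 1 to 3. Surgery and tissue both changed between sham and pMx, and their parts cannot be told apart. The RNA integrity scores that the study reported were lowest for intact, higher for sham and highest for pMx samples, without overlap. RNA quality therefore cannot be told apart from the group either. The labels do not say whether the replicates of a group were pooled or came from separate rats.

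Levels are TPM, a measure corrected for transcript length that sums to 1000000 in each library, so genes can be compared with each other. No read numbers are kept, and the depth is unknown. Between 15644 and 16125 genes were above 0 TPM per library, and no pair of libraries was identical. Prg4, which encodes the joint lubricant of synovial lining cells, was at 1084 to 2986 TPM in the 9 libraries. The lining gene Clic5 was at 436 to 503 TPM in intact tissue and 8.86 to 17.25 TPM in the pMx libraries. Acan, a cartilage proteoglycan gene, was at 0.25 to 2.01 TPM in the intact and 182 to 236 TPM in the pMx libraries. Not all markers followed the tissue labels in this way. The fibroblast gene Thy1 was at 99.76 to 147.10 TPM in the intact and 966 to 1074 TPM in the pMx libraries. Chad, a cartilage matrix gene, was at 142.50, 2.07 and 9.52 TPM in the intact and 0.08 to 0.23 TPM in the pMx libraries.

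Adult skeletal muscle fibers are classed by the myosin heavy chain they make. Type IIB, IIX and IIA fibers are fast and carry Myh4, Myh1 and Myh2, and type I fibers are slow and carry Myh7. Embryonic and perinatal myosins are made while muscle forms and again, for a time, when injured fibers regenerate. Pax7 marks satellite cells, the stem cells of muscle, and Myog is switched on as myoblasts leave the cell cycle and differentiate. Synovium holds no skeletal muscle fibers of its own, but the muscles of the thigh lie against the joint capsule.

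The fast chains Myh4, Myh1 and Myh2 lie close together on rat chromosome 10, and their promoter windows (250 bases before to 50 after the annotated start, RefSeq, build GRCr8) share a run of 20 bases. The stretches around it are shown because these 3 genes together held the largest share of the 6 skeletal myosin chains in every library. The capitals mark the shared run, found by comparing the 3 windows letter by letter. All stretches are on the plus strand, at chr10:52421931-52422050 for Myh4, chr10:52384706-52384825 for Myh1 and chr10:52355529-52355648 for Myh2.
Myh4: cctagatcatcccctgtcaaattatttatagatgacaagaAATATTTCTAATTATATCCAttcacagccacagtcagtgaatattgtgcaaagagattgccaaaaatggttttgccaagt
Myh1: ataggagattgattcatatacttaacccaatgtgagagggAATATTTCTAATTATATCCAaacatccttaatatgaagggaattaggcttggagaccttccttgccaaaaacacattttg
Myh2: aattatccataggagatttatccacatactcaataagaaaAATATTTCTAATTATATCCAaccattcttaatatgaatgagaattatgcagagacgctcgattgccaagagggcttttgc
The run began 177, 166 and 170 bases before the start of Myh4, Myh1 and Myh2. It was found, on either strand, in 5 of 33469 promoter windows of the same length (0.0149%). Besides the 3 fast chains these were 2 windows of LOC102555216. It was not in the windows of Myh7, Myh3, Myh8, Acta1, Ckm, Pax7 or Myog. Of these genes, Myh3 and Myh8 also lie on chromosome 10, on either side of the 3 fast chains. Their windows are at chr10:52268935-52269234 and chr10:52462259-52462558. The match is a description of the letters and does not show that a factor binds there.

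The summed level of the 10 genes differed by orders of magnitude between libraries of the same group. It was 20.5, 83.8 and 24427 TPM in intact replicates 1 to 3, 672, 1386 and 83.7 TPM in sham replicates 1 to 3, and 1162, 1329 and 24.9 TPM in pMx replicates 1 to 3. Intact replicate 3 was thus 1189 times higher than intact replicate 1 and 17.6 times higher than the next library, sham replicate 2. Replicate 3 was the lowest of the sham and of the pMx group, by 16.6 and 53.4 times against replicate 2. In bulk tissue, fewer muscle cells and less RNA per cell cannot be told apart.

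**Figure D1:**
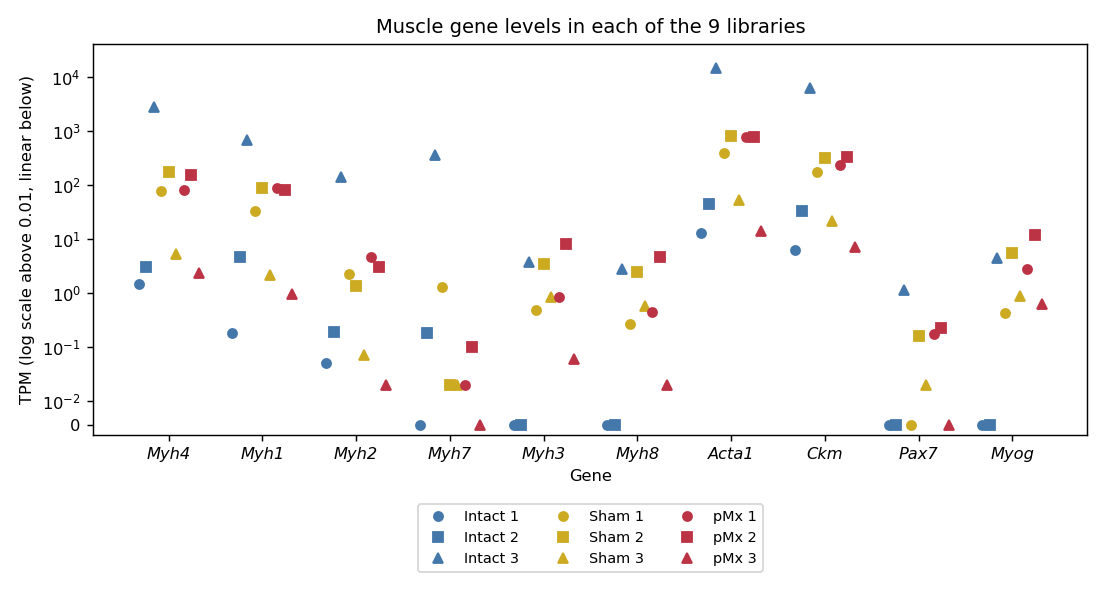
TPM of each of the 10 muscle genes (x axis) in the 9 libraries (points, color for the group and shape for the replicate), on a y axis that is logarithmic above 0.01 TPM and linear below. Intact replicate 3 is the highest library for 7 genes, and pMx replicate 2 is the highest for Myh3, Myh8 and Myog.

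Acta1, the main actin of skeletal muscle thin filaments, was at 12.62, 43.62 and 14306.69 TPM in intact tissue, 388.76, 807.51 and 52.86 TPM in the sham libraries and 753.32, 748.41 and 13.87 TPM in the pMx libraries. By level it ranked 1 among all genes in intact replicate 3 and 7961 in intact replicate 1. Ckm, which regenerates ATP from phosphocreatine in muscle, was at 6.23, 32.27 and 6266.26 TPM in intact tissue, 169.20, 307.36 and 21.07 TPM in the sham libraries and 231.82, 320.10 and 7.01 TPM in the pMx libraries. The libraries with much Acta1 had much Ckm, and the ratio of Ckm to Acta1 stayed between 0.308 and 0.740 while the level of either gene varied by orders of magnitude. Acta1 and Ckm together made up 80.4% to 91.8% of the summed level of the 10 genes.

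Myh4, the IIB chain of the fastest fibers, was at 1.46, 3.02 and 2674.50 TPM in intact tissue, 77.32, 170.54 and 5.24 TPM in the sham libraries and 80.21, 152.14 and 2.31 TPM in the pMx libraries. Myh1, the IIX chain, was at 0.18, 4.51 and 680.52 TPM in the intact, 32.16, 87.86 and 2.16 TPM in the sham and 88.14, 80.97 and 0.95 TPM in the pMx libraries. Myh2, the IIA chain of fast oxidative fibers, was at 0.05, 0.19 and 138.75 TPM in the intact, 2.20, 1.35 and 0.07 TPM in the sham and 4.59, 3.06 and 0.02 TPM in the pMx libraries. For Myh4 and Myh1 the range of the intact group enclosed the ranges of both other groups, and for Myh2 only pMx replicate 3 lay below it.

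Myh7, the slow chain, was at 0, 0.18 and 348.05 TPM in intact tissue, 1.30, 0.02 and 0.02 TPM in the sham libraries and 0.02, 0.10 and 0 TPM in the pMx libraries. Outside intact replicate 3, only sham replicate 1 was above 1 TPM. Myh6, the cardiac paralog of Myh7, was at 12.79 TPM in intact replicate 3, 3.67% of the Myh7 level there, and at 0 to 0.05 TPM elsewhere. The other 5 cardiac markers, Nppa, Nppb, Tnni3, Myl7 and Ryr2, were at 0 to 0.58 TPM in intact replicate 3. How reads shared by such closely related myosin genes were counted is not given in the sources used here, so low values of one myosin beside a high paralog are uncertain.

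Myh3, the embryonic chain, was at 0, 0 and 3.66 TPM in intact tissue, 0.48, 3.41 and 0.83 TPM in the sham libraries and 0.85, 7.84 and 0.06 TPM in the pMx libraries. Myh8, the perinatal chain, was at 0, 0 and 2.77 TPM in the intact, 0.26, 2.47 and 0.58 TPM in the sham and 0.44, 4.53 and 0.02 TPM in the pMx libraries. Both were highest in pMx replicate 2, although Acta1 was far higher in intact replicate 3. Where both were above 0, Myh3 exceeded Myh8 by 1.32 to 3.00 times. Sham 2 and pMx 2, which share a replicate number, had the highest developmental myosins of their groups.

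Myog was at 0, 0 and 4.32 TPM in intact tissue, 0.42, 5.48 and 0.87 TPM in the sham libraries and 2.75, 11.81 and 0.63 TPM in the pMx libraries. It was highest in pMx replicate 2, followed by sham replicate 2, while for Myh3 and Myh8 intact replicate 3 came second. Pax7 was at 0, 0 and 1.12 TPM in the intact, 0, 0.16 and 0.02 TPM in the sham and 0.17, 0.22 and 0 TPM in the pMx libraries. Its highest level was in intact replicate 3, and no other library reached 1 TPM.

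As group means, 7 of the 10 genes were highest in the intact group, through 1 library. The mean level of Acta1 was 4788 ± 8244 TPM for intact, 505 ± 426 TPM for pMx and 416 ± 378 TPM for sham tissue (SD, n = 3 each). Without intact replicate 3 the intact mean was 28.1 TPM, the lowest of the 3. Myog had another order, with means of 5.06 ± 5.94 TPM for pMx, 2.26 ± 2.80 TPM for sham and 1.44 ± 2.49 TPM for intact tissue (SD, n = 3 each). The SD was close to or above the mean in all of these groups, and no neighbors in either order differed beyond their spread.

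In the fit of group means across all 16512 genes above 0 TPM in at least 3 libraries (limma on log2(TPM + 1)), a gene was called when its adjusted p was below 0.05 and its absolute log2 fold change above 1. All 10 muscle genes passed the filter, and 0 of 10 were called by limma in each comparison. At an unadjusted p below 0.05, 0 of 10 passed as well, and no other tool was run. Of all genes tested, 1.96% were called in sham versus intact, 8.21% in pMx versus sham and 14.3% in pMx versus intact. Nothing is read from these counts, since the genes were chosen for levels that do not follow the groups. The standard errors of the 10 log2 fold changes ran from 0.26 for Pax7 to 2.72 for Myh4, against a median of 0.11 over all genes tested. The log2 fold change of Myh4 in sham versus intact was 0.55, and without intact replicate 3 it was 3.80. For Acta1 these values were 0.32 and 3.38, and for Ckm they were -0.13 and 2.76. Leaving out other single libraries gave values as low as -1.24 for Myh4, -1.64 for Acta1 and -2.12 for Ckm, so all 3 changed sign with 1 library.

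To describe the mix of myosins within a library, each of the 6 chains was expressed as its share of their summed TPM, which was 1.69, 7.90 and 3848 TPM in intact tissue, 114, 266 and 8.90 TPM in the sham libraries and 174, 249 and 3.36 TPM in the pMx libraries. The fast chains together made up at least 83.9% of it in each of the 9 libraries. Myh4 was the most abundant chain in 7 libraries, with 58.9% to 86.4%, while Myh1 led in intact replicate 2 (57.1%) and in pMx replicate 1 (50.6%). Myh2 stayed between 0.508% and 3.61%. The shares of intact replicates 1 and 2, sham replicate 3 and pMx replicate 3 rest on sums under 10 TPM.

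**Figure D2:**
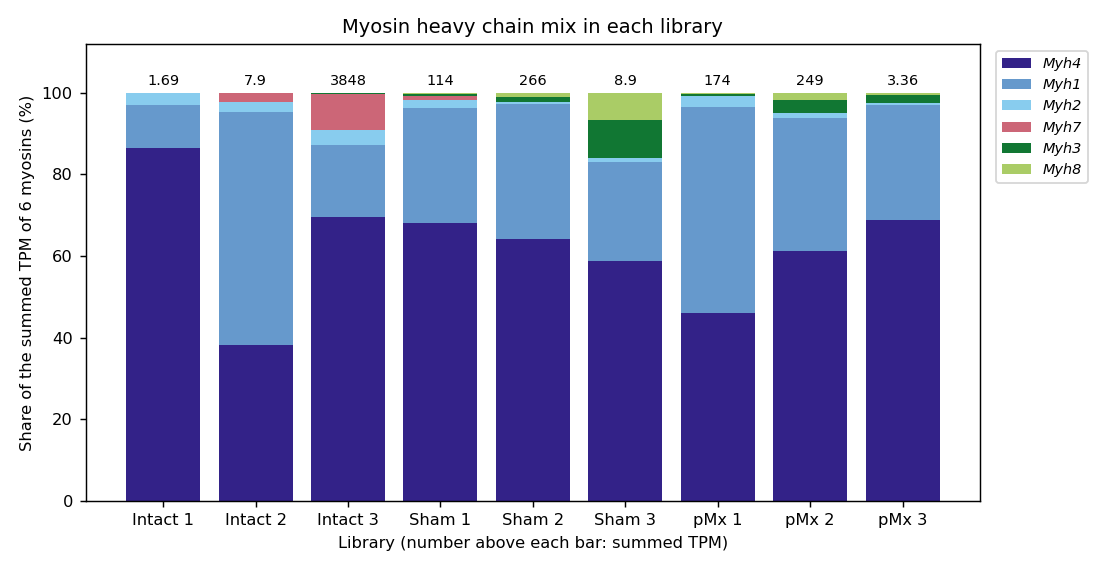
Share of each of 6 myosin heavy chains in their summed TPM (y axis, percent, stacked bars) in each library (x axis), with the summed TPM above each bar. The slow chain Myh7 is visible in intact replicates 2 and 3 and sham replicate 1, and the developmental chains Myh3 and Myh8 are largest in sham replicate 3, at 15.8%.

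The slow chain Myh7 made up 0%, 2.28% and 9.04% of the myosin in the intact libraries, 1.14%, 0.00753% and 0.225% in the sham libraries and 0.0115%, 0.0402% and 0% in the pMx libraries. Intact replicates 2 and 3 were above every operated library, and intact replicate 1 was at 0. The log2 ratio of Myh7 to the fast chains, with 0.1 TPM added to both sides, was -4.10 ± 0.74 in the intact, -7.79 ± 2.85 in the sham and -8.59 ± 3.05 in pMx tissue (SD, n = 3 each). In intact replicate 1 and pMx replicate 3 Myh7 was listed at 0, so there the ratio was set by the added 0.1 TPM and by the amount of fast myosin. The difference was -3.70 in sham versus intact and -4.50 in pMx versus intact. With 0.01 TPM added these were -3.79 and -5.28, and with 1 TPM added they were -3.01 and -3.21. Whether the groups overlapped depended on the constant: sham and intact did not overlap with 0.1 TPM but did with 0.01 and 1 TPM, and pMx and intact overlapped only with 1 TPM. Between pMx and sham the difference was -0.80, and it changed sign when pMx replicate 1, pMx replicate 2 or sham replicate 3 was left out (0.15, 0.0065 and 0.11).

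The slow and fast troponins, the calcium sensors of the thin filament, were used for a second ratio of slow to fast genes. The log2 ratio of Tnnt1, Tnni1 and Tnnc1 to Tnnt3, Tnni2 and Tnnc2 was -3.57, -4.99 and -3.46 in the intact libraries, -5.33, -4.90 and -3.21 in the sham libraries and -5.45, -4.04 and -3.02 in the pMx libraries. In the sham and pMx groups it was highest in replicate 3, where the summed level of the 10 muscle genes was lowest. In the intact group it was also highest in replicate 3, where that sum was highest. In pMx replicate 3, Tnnt1 and Tnnc1 were at 1.66 and 3.66 TPM while Myh7 was at 0 TPM. The ratio may therefore carry more than fiber type, which was not tested. The groups overlapped in every comparison. The differences were -0.47 in sham versus intact (standard error 0.81), 0.31 in pMx versus sham (0.96) and -0.16 in pMx versus intact (0.86), each with an exact permutation p of 0.8. The difference of pMx versus sham changed sign without pMx replicate 3 (-0.27) or sham replicate 1 (-0.12), and that of pMx versus intact without pMx replicate 1 (0.48), intact replicate 1 (0.056) or intact replicate 3 (0.11). The slow regulatory light chain Myl2 followed Myh7 more closely, at 778.81 TPM in intact replicate 3, 3.30 TPM in sham replicate 1 and 0 to 0.56 TPM in the other libraries. Tnni1, which developing muscle also makes, was at 21.99 and 39.32 TPM in sham replicate 2 and pMx replicate 2, where Myh7 was at 0.02 and 0.10 TPM.

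Myh3 and Myh8 together made up 0%, 0% and 0.167% of the myosin in the intact libraries, 0.651%, 2.21% and 15.8% in the sham libraries and 0.740%, 4.98% and 2.38% in the pMx libraries. All 6 operated libraries were above all 3 intact libraries in this share. In intact replicates 1 and 2 both genes were listed at 0, beside a summed myosin of only 1.69 and 7.90 TPM. The log2 ratio of Myh3 and Myh8 to the adult chains, with 0.1 TPM added to both sides, was -4.16, -6.32 and -9.20 in the intact libraries, -7.07, -5.44 and -2.33 in the sham libraries and -6.96, -4.24 and -4.23 in the pMx libraries. In intact replicates 1 and 2 the ratio was set by the added constant and by the amount of adult myosin. The difference was 1.61 in sham versus intact, -0.20 in pMx versus sham and 1.42 in pMx versus intact, and the groups overlapped. With 0.01 TPM added, sham and pMx did not overlap with intact and the differences were 3.72 and 3.25, while with 1 TPM added the groups overlapped and the differences were 0.17 and 0.40. The difference of pMx versus sham changed sign without sham replicate 3 (1.11) or pMx replicate 1 (0.71). Without intact replicate 3 those against intact were 0.29 for sham and 0.10 for pMx.

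**Figure D3:**
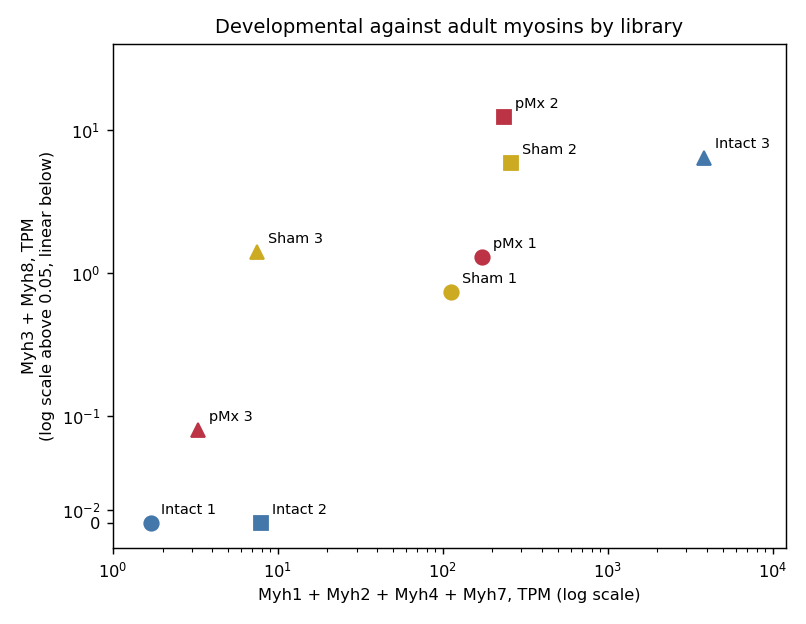
Summed TPM of the developmental chains Myh3 and Myh8 (y axis, logarithmic above 0.05 and linear below) against that of the adult chains Myh1, Myh2, Myh4 and Myh7 (x axis, logarithmic), 1 point per library. Intact replicate 3 has 3842 TPM of adult and 6.43 TPM of developmental myosin, and pMx replicate 2 has 236 and 12.4 TPM.

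Set against Ckm, Myog, Myh3 and Pax7 were each lowest in intact replicate 3 among the libraries in which they were above 0. Myog was at 0.689 TPM per 1000 TPM of Ckm in intact replicate 3, at 2.48, 17.8 and 41.3 in the sham libraries and at 11.9, 36.9 and 89.9 in the pMx libraries. Myh3 was at 0.584 per 1000 in intact replicate 3, at 2.84, 11.1 and 39.4 in the sham and at 3.67, 24.5 and 8.56 in the pMx libraries. Pax7 was at 0.179 per 1000 in intact replicate 3, at 0.521 to 0.949 in 4 of the operated libraries and at 0 in sham replicate 1 and pMx replicate 3. Intact replicates 1 and 2 had 0 TPM of all 3 genes, so the intact side of this comparison is 1 library and no test was made. Tnni1 had another order, at 56.6 per 1000 in intact replicate 3 against 25.3 in sham replicate 1 and 43.7 in pMx replicate 1.

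The other genes of muscle were counted in 7 lists of partner genes with 106 genes in the table, of which 105 passed the filter. Intact replicate 3 held 79 of the 106 genes at their highest level. All 12 fast fiber partners, all 20 genes of the shared sarcomere and Z-disc, all 14 of excitation-contraction coupling and all 14 of muscle energy metabolism were highest there. The fast fiber partners, thin- and thick-filament and calcium pump genes, summed to 43572 TPM in intact replicate 3 and to 522 to 4031 TPM elsewhere. Of the 522 TPM, in pMx replicate 3, Tpm1 alone was 415.72 TPM. Mb, the oxygen store myoglobin, was at 2257.35 TPM in intact replicate 3, 240.59 TPM in sham replicate 2, 282.95 TPM in pMx replicate 1 and 1.18 TPM in intact replicate 1. Together the 106 partner genes took up 6.65% of the TPM of intact replicate 3 and 0.307% to 0.850% of the other libraries. In intact replicate 1 they summed to 3069 TPM, while the 10 muscle genes summed to 20.5 TPM. Most of the 3069 TPM came from Tpm2, Tpm1, Slc25a4, Ldha and Tpm3, at 600.90, 538.42, 412.03, 364.34 and 221.23 TPM. The partner sums are therefore not a measure of muscle RNA alone.

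**Figure D4:**
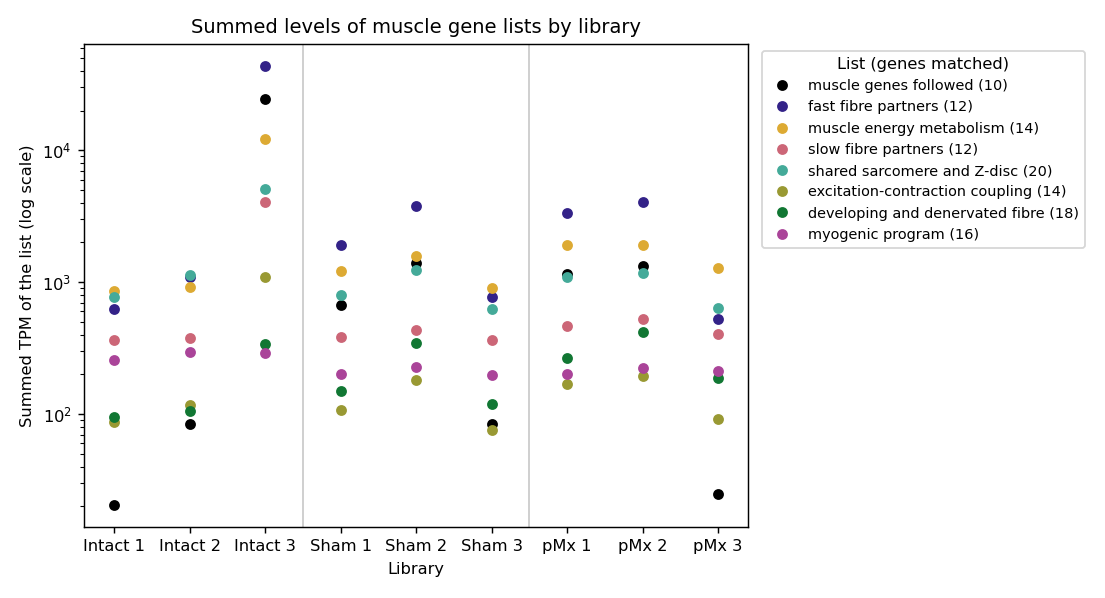
Summed TPM (y axis, logarithmic) of the 10 muscle genes and of the 7 partner lists in each library (x axis), with the number of genes per list in the legend. The fast fiber partners reach 43572 TPM in intact replicate 3, while the myogenic program lies between 199 and 295 TPM in all 9 libraries.

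The lists of the myogenic program and of developing and denervated fibers had another pattern. Of the 16 genes of the myogenic program, 5 were highest in intact replicate 3, 5 in pMx replicate 2 and 0 in sham replicate 2. Of the 18 genes of developing and denervated fibers, 4 were highest in intact replicate 3, 9 in pMx replicate 2 and 4 in sham replicate 2. Chrnd and Chrng, subunits of the muscle acetylcholine receptor that embryonic and denervated fibers spread over their surface, were at 9.29 and 1.36 TPM in sham replicate 2 and at 10.30 and 2.21 TPM in pMx replicate 2. In intact replicate 3 they were at 1.12 and 0 TPM. Actc1, the actin of the heart and of young skeletal fibers, was at 28.14 TPM in sham replicate 2, 51.61 TPM in pMx replicate 2 and 47.51 TPM in intact replicate 3. Mymx, needed for myoblast fusion, was at 2.22 and 2.38 TPM in replicate 2 of sham and pMx and at 0 to 0.33 TPM in the other 7 libraries. Each of these 4 genes was highest in pMx replicate 2, as Myog and Myh3 were, but they were named after their values were seen. Other genes of developing and denervated fibers went otherwise. Mybph was highest in intact replicate 3, at 126.82 TPM against 30.85 TPM in pMx replicate 2. Ankrd1 and Gadd45a were highest in sham replicate 2, at 76.24 and 118.02 TPM.

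The partner genes were not among the 10 genes, but they vary with them, and their lists were chosen with earlier results of these data known. They were tested in the same fit. In sham versus intact, 3 of 105 were called, all higher in sham (2.86%, against 1.96% of all genes tested). In pMx versus sham, 5 were called, 3 higher and 2 lower in pMx (4.76%, against 8.21%). In pMx versus intact, 10 were called, 5 higher and 5 lower (9.52%, against 14.3%). The fast fiber and the shared sarcomere lists had 0 called genes in every comparison by limma, with 0 and 2 at an unadjusted p below 0.05 in sham versus intact, 0 and 0 in pMx versus sham and 0 and 2 in pMx versus intact. Their median log2 fold changes in pMx versus sham were -0.09 and 0.19, against -0.01 over all genes tested. The median standard error was 2.20 on the log2 scale for the fast fiber partners and 1.53 for the shared sarcomere genes. With such a spread a call was unlikely from the start, and nothing is read from the 0 called genes of these lists. The counts of both lists changed with the fit. With the summed level of the 10 genes as a covariate, Tpm1, Ldb3 and Myom1 were called as lower in sham and in pMx than in intact (-1.56 to -1.04 on the log2 scale). That covariate is built from the 10 genes and is by far highest in intact replicate 3. Without the covariate and that library, none of these was called: -0.16, 0.44 and 0.25 in sham versus intact, and 0.02, 0.24 and 0.08 in pMx versus intact. Without intact replicate 3, Klhl41 was called as higher in pMx than in intact (3.29; limma, adjusted p = 0.0433), and without intact replicate 1, Tpm2 was called in both comparisons with intact.

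Ncam1, an adhesion molecule of developing and denervated muscle that nerve and mesenchymal cells also carry, rose from 3.08 ± 0.75 TPM in intact to 8.53 ± 3.71 TPM in sham and 32.5 ± 4.29 TPM in pMx tissue (SD, n = 3 each). On the log2 scale this was 1.17 for sham over intact (limma, adjusted p = 0.0277) and 1.88 for pMx over sham (limma, adjusted p = 8.80e-04). In intact replicate 3 it was at 3.45 TPM, against 2.22 and 3.57 TPM in the other intact libraries. Runx1, a transcription factor of denervated muscle and of blood and skeletal cells, rose by 1.44 on the log2 scale from sham to pMx (limma, adjusted p = 7.25e-05) and was at 12.79 to 13.46 TPM in all intact libraries. Tnnt2, the cardiac and embryonic troponin T, exceeded its intact level in pMx by 3.42 on that scale (limma, adjusted p = 8.35e-04), and at 3.02 TPM in intact replicate 3 it was above the other intact libraries.

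Of the myogenic program, Chrdl2, which encodes a BMP inhibitor, rose by 1.51 and Megf10, a receptor of satellite cells and glia, fell by 1.40 on the log2 scale from sham to pMx (limma, adjusted p = 6.05e-04 and 0.00132). Msc, a repressor of myogenic factors, rose by 1.05 from intact to sham (limma, adjusted p = 0.0255). Itga7, an integrin of muscle and vessel walls, fell by 1.21 from intact to pMx (limma, adjusted p = 1.63e-04). Phkg1, a phosphorylase kinase subunit, fell by 2.10 from sham to pMx (limma, adjusted p = 0.00652), and in intact replicate 3 it was at 74.17 TPM against 18.63 and 20.43 TPM in the other intact libraries. Myh7b, a myosin chain related to Myh7, fell by 1.33 and Jph1, which joins the membranes of the muscle triad, fell by 1.76 from intact to pMx (limma, adjusted p = 2.70e-05 and 0.0337). The 3 calls in sham versus intact, Msc, Ncam1 and Tnnt2, were all lost without intact replicate 2, sham replicate 1 or sham replicate 2. They were also lost without intact replicate 1, when 2 other partner genes, Tpm2 and Jph2, were called as lower in sham. Tnnt2 alone was also lost without sham replicate 3 or any 1 of the pMx libraries. The count in pMx versus intact was 16 without intact replicate 3, 11 higher and 5 lower, and it is not set against the share of all genes in that fit. The call of Jph1 in pMx versus intact was lost without pMx replicate 1 or pMx replicate 3.

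The smooth muscle genes Myh11 and Acta2 did not share the pattern. Myh11, the smooth muscle myosin, was at 423.16, 665.01 and 371.11 TPM in the intact, 238.53, 221.20 and 278.10 TPM in the sham and 29.78, 29.33 and 41.15 TPM in the pMx libraries. From sham to pMx it fell by 2.85 on the log2 scale (standard error 0.22; limma, adjusted p = 5.20e-05). Acta2, the smooth muscle actin, fell by 1.36 (limma, adjusted p = 0.00101). Intact replicate 3 was the lowest of the intact libraries for Myh11, Acta2 and Rgs5. For Cnn1, Tagln and Actg2 intact replicate 1 was the lowest, at 108.70, 1574.00 and 161.57 TPM. Intact replicate 3 had 122.89, 1593.48 and 168.88 TPM of these genes. Of the 7 smooth muscle markers, 4 were called as lower in pMx than in sham (57.1%, against 8.21% of all genes tested). The other markers were not all lower: 2 of the 7 had a positive log2 fold change, up to 0.95, and that of Rgs5 was 0.08.

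Across the 9 libraries, Acta1, Myh1, Myh4 and Ckm each had a Pearson correlation of log2(TPM + 1) with the summed level of the other 9 genes of 0.988 to 0.998, and of 0.978 to 0.995 over the 8 libraries without intact replicate 3. For Myh7 these were 0.704 and 0.277, for Myog 0.732 and 0.768, and for Myh3 0.761 and 0.751. The libraries share their TPM total, and the values are a description. Among 13204 genes with a mean of at least 1 TPM, those outside all lists with the highest correlation to the summed level were Tceal7, Ankrd23, Trim72, Eef1a2, Mylk2, Art1, Apobec2 and Sypl2 (0.971 to 0.985 over 9 libraries, 0.959 to 0.978 over 8). Trim72 encodes a membrane repair protein of muscle, and Mylk2 encodes skeletal myosin light chain kinase. Ankrd23, a titin-binding ankyrin protein gene, was at 468.30 TPM in intact replicate 3, 73.16 TPM in sham replicate 2 and 0.67 TPM in intact replicate 1. Of the 100 genes outside the 10 with the highest correlation, 46 were partner genes. Where the muscle RNA in these libraries came from was not tested.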

How the data were processed

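RNA was sequenced from intact synovium, sham synovium and pMx regenerative tissue, 3 libraries each. The authors analyzed the reads with the BGI platform Dr. Tom and deposited TPM values with 2 decimals. The submitters' processing notes name HISAT2 2.0.4 and mRatBN7.2. The counting tool, the annotation and the handling of reads shared by paralogs are not given in the sources used here. Samples were grouped by title and each value column by its name, with 0 left unmapped. The labels name an RNA kit and sequencer that differ from those of the methods.

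The 10 genes and the lists were chosen with earlier results of these data known. Of 107 listed partner genes, 106 were found by symbol or by gene identifier through a RefSeq table (GRCr8). Myl6b is not analysed here. Group means were fitted to log2(TPM + 1) in limma 3.58.1 (R 4.3.3, mean-variance trend, Benjamini-Hochberg adjustment), without a block, with all 9 libraries, keeping genes detected (above 0 TPM) in 3 or more. Calculations were checked on simulated data. Ratios had 0.1 TPM added to both sides. The troponin ratio was compared by two-sided exact permutation tests over libraries. The same test was planned for the myosin ratios and is not reported, since the added constant carries the amount of muscle RNA into them where a chain is at 0. p-values measure the spread between these libraries. Named genes were the 10 genes, the 4 partner genes of a list with the highest mean TPM, any that were called, and the 8 best correlated others. Chrnd, Chrng, Actc1, Mymx, Tnni1, Myom1 and Klhl41 were named after their values were seen, and some genes the rule covers are given only as counts. Alternatives were another pseudocount, filters, 2 rescalings, the libraries of 1 comparison, a replicate block, the summed muscle level as a covariate, other ratio constants and leaving out each library.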

Additional observations from a re-analysis of the deposited data

How the results depend on the processing

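The count of called partner genes in sham versus intact depended on the settings. It was 3, and it was 0 with the 6 libraries of the comparison, 13 (4 higher, 9 lower) with the summed level of the 10 genes as a covariate, and 0 to 3 when 1 library was left out. In pMx versus intact it was 10, and it was 21 (7 higher, 14 lower) with the covariate and 9 to 16 when 1 library was left out. In pMx versus sham it was 5, and 5 to 7 in every alternative run. These alternative counts are not set against the share of all genes called at the same setting. They are therefore not read as particular to the muscle genes. The replicate block gave 1 call, Ncam1, in sham versus intact and lost Jph1 in pMx versus intact. The labels do not say what same-numbered libraries share beyond the number. Same-numbered sham and pMx libraries deviated together with correlations of 0.035, 0.368 and 0.485. Of these, 5 of 6 libraries correlated best with their own number, against 0 of 6 in each of the other comparisons. Same-numbered correlations with intact were 0.0016, -0.399 and -0.493 for sham and -0.378, -0.439 and -0.664 for pMx. What the numbers mark was not tested.

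The log2 ratio of developmental to adult myosins in pMx versus sham, -0.20, was 0.24 with a constant of 1 TPM and 0.013 with Myh3 alone. When 1 library was left out it ran from -1.26 to 1.11. Likewise the slow myosin ratio of pMx versus sham ran from -2.56 to 0.15, the troponin ratio of pMx versus sham from -0.27 to 0.95 and that of pMx versus intact from -0.74 to 0.48. The causes were not tested. The depth is unknown, values have 2 decimals, and shares from libraries with little muscle RNA rest on single steps of low TPM. Groups of 3 libraries cannot reach an exact permutation p below 0.1.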
